A study of Mus musculus with 4 samples.

Results

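The 10 genes described here are Il1a, Il1b, Il1rn, Il1r2, Tnf, Il6, Nfkbia, Nfkbiz, Relb and Tnfaip3, taken by symbol from 28006 features in 4 single-cell RNA libraries of mouse lung tumours. All mice carried KrasFSF-G12D, p53frt and Rosa-FSF-CreERT2 on a mixed 129/B6 background, and lung adenocarcinoma was started with the FlpO virus Ad5-mSPC-FlpO, in which the mSPC promoter, active in alveolar type 2 cells, drives the recombinase that switches the other Flp-dependent alleles. Cre acts only where Flp has switched on CreERT2, so immune and stromal cells are not meant to lose Foxa1 or Foxa2. KP mice had Foxa1flox/+ and Foxa2flox/+, so 1 floxed copy of each gene, and KPF1F2 mice had Foxa1flox and Foxa2flox. Both genotypes received tamoxifen at 120 mg/kg in 4 daily injections from week 10 and tumours were collected at week 12, so both genotypes had been exposed to tamoxifen and the KP tumour cells could also lose 1 copy of each gene. Each genotype gave 1 library before and 1 after magnetic depletion of CD45+ and CD31+ cells, that is, of blood-derived and endothelial cells. The sources used here give neither the age of the mice nor whether animals were pooled.

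Interleukin 1 is made as Il1a, which can act from inside or at the surface of a damaged cell, and as Il1b, which is cut to its active form after an inflammasome assembles. Il1rn encodes a secreted antagonist of the receptor and Il1r2 a decoy receptor that binds the ligand without signalling. Signals from interleukin 1, TNF and Toll-like receptors converge on NF-kB, which then raises transcription of cytokines such as Tnf and Il6 and of its own brakes. Among those brakes Nfkbia encodes IkB-alpha, which holds NF-kB in the cytoplasm, and Tnfaip3 encodes the ubiquitin-editing enzyme A20. Nfkbiz encodes IkB-zeta, a nuclear co-regulator needed for secondary targets such as Il6, and Relb encodes the transcription factor subunit of the alternative NF-kB pathway.

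The promoters of Il6, Nfkbia and Tnfaip3 are shown because these genes were higher together in the fibroblast-like cells described below, and because kB motifs lie close to their RefSeq start sites. Each line gives the 250 bases before the RefSeq start site on GRCm38.p6, 5′ to 3′ on the gene's strand, with matches to a kB motif in capitals.
Il6 (chr5:30012864-30013113, plus strand): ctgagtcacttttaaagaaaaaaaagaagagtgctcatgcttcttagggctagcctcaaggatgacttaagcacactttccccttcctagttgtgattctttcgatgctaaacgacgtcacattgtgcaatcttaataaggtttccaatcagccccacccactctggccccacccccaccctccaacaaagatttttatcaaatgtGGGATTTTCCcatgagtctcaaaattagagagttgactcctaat
Nfkbia (chr12:55492648-55492897, minus strand): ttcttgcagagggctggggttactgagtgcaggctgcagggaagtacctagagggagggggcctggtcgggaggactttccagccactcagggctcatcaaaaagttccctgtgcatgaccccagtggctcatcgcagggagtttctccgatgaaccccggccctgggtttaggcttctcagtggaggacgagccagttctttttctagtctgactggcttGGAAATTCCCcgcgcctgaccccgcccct
Tnfaip3 (chr10:19015411-19015660, minus strand): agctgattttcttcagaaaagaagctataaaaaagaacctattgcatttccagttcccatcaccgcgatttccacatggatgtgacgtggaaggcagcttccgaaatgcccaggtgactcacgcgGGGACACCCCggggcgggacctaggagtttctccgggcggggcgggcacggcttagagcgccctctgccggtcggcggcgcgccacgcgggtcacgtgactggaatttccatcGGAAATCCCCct

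Both strands were searched for a strict kB motif (GGG, any 2 bases, then TTTCC) and for the broader kB consensus, and the motifs can overlap. In windows of 300 bases (250 before and 50 after the start), 4 of the 8 members with an entry held the strict motif in at least 1 window, against 1.89% of 27025 genes (1.63% of 32851 promoters). The match began 44 bases before the RefSeq start of Il6, 29 before that of Nfkbia and 12 before the first RefSeq start of Tnfaip3. The GENCODE span of Tnfaip3 on the minus strand, chr10:19000910-19015657, begins upstream of that RefSeq start. Most of the stretch shown for Tnfaip3 therefore lies inside that span. The other was at later starts of Il1rn. The kB consensus was found in 3 of the 8 members, against 9.55% of genes (8.46% of promoters). Il1a, Il1b, Il1r2 and Tnf had no match in this window, and Nfkbiz and Relb had no entry. A match is a stretch of letters, and binding was not measured.

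Cells were grouped by clustering without the 10 genes, and classes were named from marker genes. Counts of unique molecular identifiers (UMIs) were summed over each class in each library and scaled to counts per 1000000 UMIs of the class (CPM), with exact Poisson 95% intervals that cover counting error only. There was 1 library per group, so no test was possible, and the spread between mice is unknown. Before filtering, any 2 libraries shared 6 to 16 cell barcodes. After filtering, 2506 to 3685 cells per library remained, with a median of 7211 to 16408 UMIs per cell. Before depletion the classes compared held 73 to 1075 cells in KP and 83 to 716 in KPF1F2, and neutrophil-like cells were shallow, at a median of 3200 UMIs in KP and 2912 in KPF1F2. In epithelial-like cells the feature Foxa1_2 was at 17.1 CPM (15.3 to 19.1) in KP and 10.2 (7.69 to 13.2) in KPF1F2 before depletion, and at 16.7 and 3.67 after it. Foxa1_1 went the other way (4.07 and 5.35 CPM before depletion, 2.73 and 7.94 after), and the features named Foxa1 and Foxa2 were at 0 UMIs in all 4 libraries. What part of each gene these features cover is not given, so they check the labels only in part. Xist stood at 330 to 1320 CPM in every KP class and at 0 to 1.13 in KPF1F2, whereas Ddx3y was at 0 in KP and at 29.4 to 219 in KPF1F2. The pair of libraries before depletion also carries different numbers in the titles (18836 and 18385), whereas the pair after depletion shares 18836. Genotype and sex cannot be told apart in either pair, and genotype and title number cannot be told apart before depletion.

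The interleukin 1 genes were mainly myeloid. Before depletion Il1a, Il1b, Il1rn, Il1r2, Tnf and Nfkbia were each highest, in CPM, in neutrophil-like cells of both libraries, among classes with at least 50 cells. For Il1b the order in KP was neutrophil-like, macrophage-like, dendritic-like and alveolar macrophage-like, with intervals that did not overlap. The same order held in KPF1F2, where monocyte-like cells stood between the macrophage-like and the dendritic-like cells. After thinning to 1000 UMIs per cell, Il1b was detected in 98.4% of KP and 98.9% of KPF1F2 neutrophil-like cells, and in 1.82% and 2.78% of T cell-like cells, a class that should lack it. Unthinned, those shares were 99.5% and 99.6% in neutrophil-like cells and 6.84% and 10.9% in T cell-like cells. The T cell-like cells had median depths of 4861 and 4192 UMIs. The T cell-like shares are read as background.

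The other members had different homes. Relb was highest in dendritic-like cells, at 143 CPM in KP and 147 in KPF1F2, although in KPF1F2 its interval overlapped that of endothelial-like cells (98). Tnfaip3 was highest in T cell-like cells (693 CPM) and NK-like cells (624) of KP, whose intervals overlapped, and again in both of them in KPF1F2 (511 and 525). Among KP classes with at least 50 cells, Il6 was highest in dendritic-like cells (15.3 CPM) and alveolar macrophage-like cells (11.2), again overlapping. The 43 fibroblast-like cells of KP, left out of that order, had 21.1 CPM from 14 UMIs (interval 11.5 to 35.4). In KPF1F2 Il6 was highest in fibroblast-like cells (281 CPM), followed by monocyte-like cells (57.3). Nfkbiz was about level between neutrophil-like (379 CPM) and macrophage-like (332) cells in KP. In KPF1F2 it was highest in neutrophil-like cells (874), ahead of fibroblast-like cells (530).

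**Figure D1:**
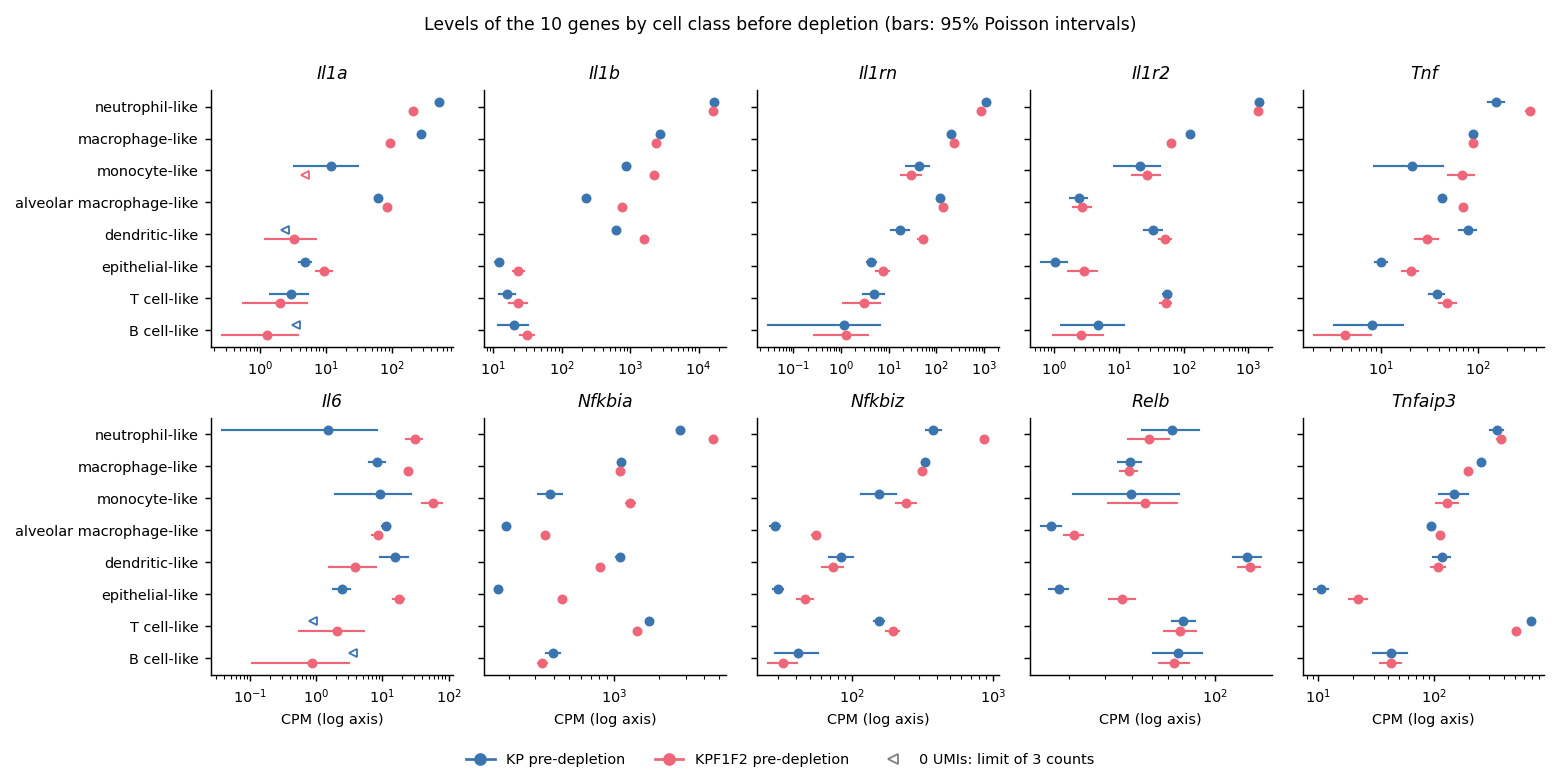
Level of each of the 10 genes in each cell class of the libraries before depletion, in CPM on a log scale, with KP and KPF1F2 side by side and exact Poisson 95% intervals. Il1a, Il1b, Il1rn, Il1r2, Tnf and Nfkbia peak in neutrophil-like cells, Relb in dendritic-like cells and Tnfaip3 in T cell-like and NK-like cells.

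Because classes differ in cell number and in RNA per cell, the class with the highest level was not always the main source of a transcript. Of the Il1b UMIs in all cells kept before depletion, macrophage-like cells held 50.6% in KP and 37.3% in KPF1F2, and neutrophil-like cells 32.5% and 38.9%. Alveolar macrophage-like cells held 12.8% and 17.1%. For Il1a the macrophage-like share was 51.9% in KP and 37.4% in KPF1F2, and the alveolar macrophage-like share 34.8% and 47.8%. Neutrophil-like cells held 46.5% of the Il1r2 UMIs in KP and 69.4% in KPF1F2. Il6 differed in its main source: alveolar macrophage-like cells held 61.6% of it in KP, whereas fibroblast-like cells held 41.7%, macrophage-like cells 25.8% and alveolar macrophage-like cells 12.8% in KPF1F2. After depletion, fibroblast-like cells held 64.9% and epithelial-like cells 34.9% of the Il6 UMIs in KPF1F2. These shares follow the number of cells that each preparation yielded, which the protocol can set.

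**Figure D2:**
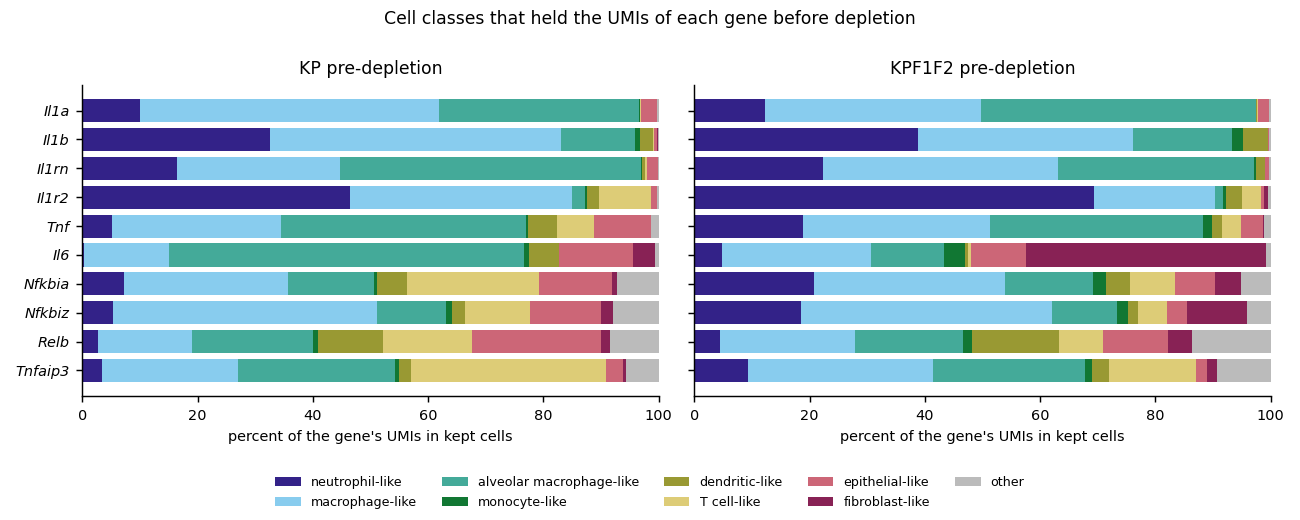
Percent of each gene's UMIs in all cells kept that came from each cell class in the KP and KPF1F2 libraries before depletion. Macrophage-like and neutrophil-like cells hold most Il1b in both, and fibroblast-like cells hold 41.7% of Il6 in KPF1F2.

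The genotypes were compared as the log2 ratio of KPF1F2 to KP with 1 CPM added, and a gene counted as different when the ratio was at least 2-fold. Only genes with a mean of 20 CPM and 20 UMIs in the pair of libraries were compared. A gene below 20 CPM in 1 library could thus pass through its level in the other. In neutrophil-like cells 9 of the 10 members passed that filter, of which 2 were higher and 1 lower in KPF1F2. There, 3.41% of 4518 genes were higher and 25.4% lower. In alveolar macrophage-like cells 1 of 7 was higher and none lower, beside 1.63% and 0.871% of all genes. In macrophage-like cells none of 9 was higher and 1 lower (2.72% and 2.57%). In dendritic-like cells 2 of 8 were higher and 1 lower (1.58% and 3.59%). Il1rn, 1 of those 2, was at 17.8 CPM in KP and passed the filter through KPF1F2 (52.0). Most members of the myeloid classes were thus within 2-fold. The 1 member of 9 that was lower in neutrophil-like cells is no larger a share than the background there.

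Outside the myeloid classes 3 members passed the filter in epithelial-like cells in each pair. Of them 1 was higher and none lower, before depletion (4.98% and 2.68% of all genes higher and lower) and after it (4.77% and 3.84%). In fibroblast-like cells after depletion 4 of 5 members were higher and none lower, beside 5.49% and 6.05% of all genes. Il6, 1 of those 4, was at 15.7 CPM in KP and passed the filter through KPF1F2 (292). In NK-like cells none of 6 was higher and 2 were lower (2.85% and 5.08%), and in endothelial-like cells 1 of 4 was higher and none lower (4.82% and 4.60%). None of 6 members in T cell-like cells (1.06% and 1.71%) and none of 5 in B cell-like cells (3.78% and 3.68%) was past 2-fold. KP held too few monocyte-like cells (49) and, before depletion, too few fibroblast-like cells (43) for a comparison. Without a comparison, the monocyte-like cells had 879 CPM of Il1b in KP and 2198 in KPF1F2, 377 and 1287 of Nfkbia, 21.3 (7 UMIs) and 68.4 (43 UMIs) of Tnf, and 9.13 (3 UMIs) and 57.3 (36 UMIs) of Il6.

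Among the ligands, Il1a (chr2:129299610-129309972 on GRCm38) was lower in KPF1F2 in macrophage-like and neutrophil-like cells. In macrophage-like cells it was at 283 CPM (270 to 296; 1842 UMIs) in KP and 96.2 (90.4 to 102; 1038 UMIs) in KPF1F2, a log2 ratio of -1.54. The KP level was 2.94 times as high (interval 2.72 to 3.17), so counting error was far smaller than the gap. The difference was not even within the class. It lay mainly in cluster 14, with 450 CPM in KP and 69.8 in KPF1F2, while cluster 17 had 134 and 103. Cluster 14 was led by complement genes and Ccl8, cluster 17 by Ccl17 and Mmp12, and cluster 17 held 154 of 358 KP and 367 of 543 KPF1F2 cells. Both clusters showed 12 macrophage markers. Cluster 17 also showed 9 alveolar macrophage and 8 type 2 dendritic (cDC2) markers, and cluster 14 showed 5 of each. Cluster 17 may thus hold cDC2 cells, which was not tested. The summed level of 12 alveolar macrophage markers in this class was 1962 CPM in KP and 18114 in KPF1F2, with none at 0, and that of the 12 macrophage markers 30429 and 13271. The part of these in the Il1a difference was not tested.

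In neutrophil-like cells Il1a was at 525 CPM (472 to 583; 354 UMIs) in KP and 209 (188 to 233; 342 UMIs) in KPF1F2, a log2 ratio of -1.32. This difference followed the mix of 2 neutrophil-like clusters. Cluster 13 held 155 of 190 KP cells and 196 of 524 KPF1F2 cells, and cluster 10 held the remaining 35 and 328. Il1a was at 645 CPM in KP and 573 in KPF1F2 in cluster 13, and at 37.7 (5 UMIs) and 15.9 (17 UMIs) in cluster 10. Within cluster 13 alone the log2 ratio was thus -0.17. Cluster 13 was led by Il1b, Ccl3 and Il1r2 together with S100a8 and S100a9, whereas cluster 10 was led by S100a8, S100a9 and Retnlg, a marker of circulating neutrophils. The neutrophil markers summed to 55186 CPM in KP and 136010 in KPF1F2.

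The median gene of the neutrophil-like class lay at a log2 ratio of -0.53. The part of the marker transcripts in that value was not tested. With trimmed-mean factors in place of total UMIs the whole scale moved up by 0.75, and 696 genes were then higher and 226 lower, in place of 154 and 1149. On that scale Il1a was at -0.57, short of 2-fold, while Tnf was at 1.90, Nfkbiz at 1.96 and Nfkbia, which was at 0.73 by total UMIs, at 1.48. The count of members past 2-fold was then 3 higher and 0 lower, in place of 2 and 1. Il1b, Il1rn, Il1r2 and Relb were near 0 on the total scale and positive with these factors, so no direction is given for them in this class.

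Il1b (chr2:129364570-129371139) was about level in neutrophil-like cells. It stood at 16898 CPM (16589 to 17211) in KP and 16376 (16180 to 16574) in KPF1F2. The log2 ratio was -0.05, although the clusters had 18376 and 23591 CPM (cluster 13) and 10872 and 12542 CPM (cluster 10). Both clusters were therefore higher in KPF1F2 while the class was not, since the cluster with less Il1b made up more of the KPF1F2 cells. Macrophage-like cells had 2721 CPM (2681 to 2761) in KP and 2376 (2347 to 2406) in KPF1F2, a log2 ratio of -0.20.

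Il1b was past 2-fold in alveolar macrophage-like and dendritic-like cells. In alveolar macrophage-like cells, which clear surfactant and particles from the airspace, Il1b was at 225 CPM (218 to 232; 4501 UMIs) in KP and 752 (738 to 765; 11771 UMIs) in KPF1F2. The log2 ratio was 1.74 and the ratio of counts 3.34 (interval 3.23 to 3.46). Cells with an Il1b UMI made up 11.9% of KP and 36.5% of KPF1F2 cells at 1000 UMIs each (43.0% and 80.0% unthinned, at median depths of 18960 and 21255 UMIs). However, the genotypes occupied different clusters of this class, which limits what the class value compares. Cluster 0 held 832 KP and 41 KPF1F2 cells and had 223 and 183 CPM of Il1b, while cluster 19 held 18 KP and 608 KPF1F2 cells and had 810 CPM in KPF1F2. The other clusters that both libraries filled went different ways, with 128 and 592 CPM in cluster 7 (185 and 23 cells; ratio 4.62, interval 3.11 to 6.81) and 922 and 646 in cluster 9 (40 and 44 cells). Their cells had few UMIs, at medians of 2058 and 1982 in cluster 7 and 2809 and 2685 in cluster 9. Cluster 0 had medians of 21757 and 33807. No alveolar macrophage marker was among the leading genes of cluster 9. Within clusters 0 and 9 the higher level in KPF1F2 was thus not seen for Il1b, whereas in cluster 0 Nfkbia (188 and 286 CPM) and Nfkbiz (28.5 and 71.5) were higher. Whether clusters 0 and 19 differ by genotype or by library cannot be told apart.

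In dendritic-like cells Il1b was at 625 CPM (581 to 670) in KP and 1592 (1534 to 1651) in KPF1F2, a log2 ratio of 1.35. It was higher in both clusters of the class. The migratory cluster 2, marked by Ccr7 and Fscn1, had 929 and 2720 CPM, and the conventional dendritic cluster 23 had 434 and 1228. Cluster 23 showed 9 cDC1 and 8 cDC2 markers, so it mixes these subsets. With cells admitted from 500 UMIs and 200 genes, the Il1b log2 ratio of the class was 0.99, that of Il1rn 0.84 and that of Tnf -0.99, all short of 2-fold. Epithelial-like cells had 12.2 CPM in KP and 23.3 in KPF1F2 before depletion, the same range as T cell-like (16.1 and 23.3) and B cell-like cells (19.95 and 31.4), which is read as background. After depletion, when Il1b-rich cells were mostly gone, epithelial-like cells had 3 UMIs in KP and 78 in KPF1F2, 60 of them in 1 cell.

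Il1rn (chr2:24336853-24351494) and Il1r2 (chr1:40074079-40125231), the antagonist and the decoy receptor, were within 2-fold in neutrophil-like and macrophage-like cells. In neutrophil-like cells Il1rn was at 1119 CPM (1041 to 1202) in KP and 858 (813 to 904) in KPF1F2, and Il1r2 at 1449 (1359 to 1543) and 1385 (1329 to 1444). The log2 ratios were -0.38 and -0.06. Within the clusters Il1rn was higher in KPF1F2, at 219 and 472 CPM in cluster 10 (ratio 2.16, interval 1.49 to 3.26) and at 1340 and 1582 in cluster 13 (ratio 1.18, interval 1.07 to 1.30). The class value has the opposite sign because the cluster with less Il1rn made up more of the KPF1F2 cells. Il1r2 was at 806 and 1297 CPM in cluster 10 (ratio 1.61, interval 1.32 to 1.98) and at 1606 and 1551 in cluster 13. In macrophage-like cells Il1rn was at 200 and 237 CPM. Il1r2 there was at 124 CPM (116 to 133) in KP and 63.7 (59.0 to 68.6) in KPF1F2, a log2 ratio of -0.95 that stopped just short of 2-fold. The interval of the KP-to-KPF1F2 ratio, 1.76 to 2.16, included 2-fold. In cluster 17 it was past 2-fold, at 163 and 69.5 CPM (log2 ratio -1.21), and in cluster 14 it was at 80.4 and 40.2 (-0.98).

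Il1rn was higher in KPF1F2 in dendritic-like cells, at 17.8 CPM (11.1 to 26.9; 22 UMIs) in KP and 52.0 (42.1 to 63.6; 95 UMIs) in KPF1F2, a log2 ratio of 1.5. Of these UMIs, 20 in KP and 81 in KPF1F2 were in the 29 cells that each library had in migratory cluster 2, at 42.0 and 182 CPM. Il1r2 was also read in T cell-like cells, at 55.9 CPM in KP and 52.8 in KPF1F2, with no difference beyond counting error (ratio interval 0.736 to 1.2). In fibroblast-like cells after depletion Il1r2 had 5 UMIs in KP and 151 in KPF1F2 (3.93 and 23.0 CPM), which fell below the level needed for a comparison.

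Tnf (chr17:35199381-35202007) was higher in KPF1F2 in neutrophil-like cells and lower in dendritic-like cells, a contrast between classes that was not tested. In neutrophil-like cells it was at 154 CPM (126 to 187; 104 UMIs) in KP and 343 (316 to 373; 561 UMIs) in KPF1F2, with a log2 ratio of 1.15 and a ratio of counts of 2.22 (interval 1.80 to 2.77). Unlike Il1a, it was higher within cluster 13 as well, at 185 and 841 CPM. The ratio there was 4.55 (interval 3.66 to 5.71). Cluster 10 had 4 UMIs of Tnf in KP and 84 in KPF1F2 (30.1 and 78.7 CPM), with a ratio interval of 0.983 to 9.81 that includes 1. Cells with a Tnf UMI were 8.42% of KP and 17.4% of KPF1F2 neutrophil-like cells at 1000 UMIs each (22.1% and 29.6% unthinned), beside 4.41% and 3.29% of T cell-like cells, which can make Tnf themselves.

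In dendritic-like cells Tnf was at 79.1 CPM (64.2 to 96.4; 98 UMIs) in KP and 30.1 (22.7 to 39.2; 55 UMIs) in KPF1F2, a log2 ratio of -1.36. The gap lay in cluster 23 (106 and 28.2 CPM), while migratory cluster 2 had 35.7 and 35.9. Macrophage-like cells were level at 89.6 and 89.4 CPM, with a ratio interval of 0.900 to 1.11. Alveolar macrophage-like cells had 42.4 CPM (39.6 to 45.3) in KP and 70.2 (66.1 to 74.5) in KPF1F2, a log2 ratio of 0.72. In epithelial-like cells Tnf was at 10.1 and 20.3 CPM before depletion and at 19.7 and 11.1 after it, so the order of the genotypes was not kept between the pairs.

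**Figure D3:**
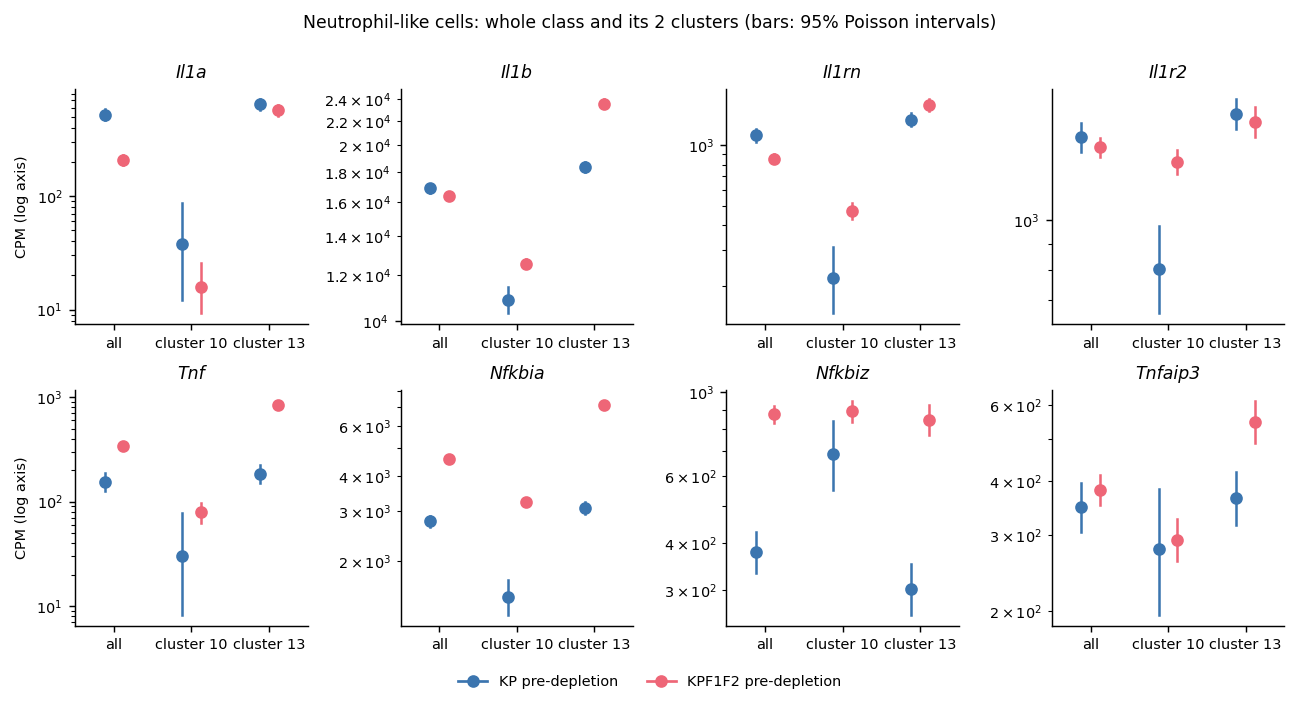
Levels of 8 members in all neutrophil-like cells and in clusters 10 and 13 of the libraries before depletion, in CPM on a log scale with exact Poisson 95% intervals, KP beside KPF1F2. Il1a is high in cluster 13 of both genotypes and low in cluster 10, Nfkbia is higher in KPF1F2 within both clusters, and Tnf within cluster 13.

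Il6 (chr5:30013114-30019981) had the largest ratio among the members compared, in fibroblast-like cells. After depletion it was at 15.7 CPM (9.59 to 24.3; 20 UMIs in 110 cells) in KP and 292 (280 to 306; 1919 UMIs in 425 cells) in KPF1F2. The log2 ratio was 4.14 and the ratio of counts 18.6 (interval 12.0 to 30.6). Cells with an Il6 UMI made up 1.82% of KP and 21.9% of KPF1F2 fibroblast-like cells at 1000 UMIs each (14.5% and 56.5% unthinned, at median depths of 9772 and 14807 UMIs). In T cell-like cells before depletion, which should lack Il6, the thinned share was 0% in KP and 0.253% in KPF1F2. Before depletion the same class had 21.1 CPM (14 UMIs in 43 cells) in KP and 281 (430 UMIs in 102 cells) in KPF1F2. The KP cells there were too few for a comparison, but both KP levels lay far below both KPF1F2 levels.

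The fibroblast-like clusters were unequally filled. Cluster 22, led by Mgp, Sparcl1 and collagen genes, held 96 KP and 185 KPF1F2 cells after depletion and had 12.5 and 132 CPM of Il6. This cluster showed 7 fibroblast and 6 mural markers, with Tagln among its leading genes. It may thus hold pericytes or smooth muscle cells beside fibroblasts. Cluster 29, led by Dcn, Clec3b, Dpt and Pi16, held 14 KP and 240 KPF1F2 cells and had 415 CPM in KPF1F2. In cluster 22, which both libraries filled, the ratio was thus 10.6 (interval 6.26 to 19.6). The share of mural cells in that cluster was not measured in either library.

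Epithelial-like cells, which include the tumour cells, also had more Il6 UMIs in KPF1F2, at levels under the 20 CPM mean. After depletion they had 1.5 CPM (1.16 to 1.90; 67 UMIs) in KP and 21.6 (20.3 to 23.0; 1032 UMIs) in KPF1F2, a ratio of counts of 14.4 (interval 11.3 to 18.8). Before depletion they had 2.42 CPM (1.78 to 3.22; 47 UMIs) and 17.6 (14.3 to 21.5; 99 UMIs), a ratio of 7.29 (interval 5.10 to 10.6). Thus both KPF1F2 libraries were above both KP libraries. At 1000 UMIs per cell 0.223% of KP and 2.24% of KPF1F2 epithelial-like cells after depletion had an Il6 UMI (1.60% and 20.9% unthinned). The class leaves out cluster 20, a shallow cluster that stayed unnamed although 8 epithelial and 9 alveolar type 2 markers were raised in it. That cluster held 661 KP and 10 KPF1F2 cells after depletion, and 120 and 0 before it.

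The Il6 UMIs came from particular epithelial-like clusters. Cluster 30, with both alveolar type 2 genes (Sftpd) and alveolar type 1 genes (Ager, Aqp5) among its leading genes, held 857 KPF1F2 cells but 3 KP cells after depletion. It had 42.9 CPM and 73.4% of the class's Il6 UMIs in KPF1F2. In cluster 1, the surfactant-rich cluster with 463 KP and 313 KPF1F2 cells, Il6 was at 4.18 and 15.7 CPM, and in cluster 24 at 2.01 (1 UMI) and 47.9 CPM. Cluster 24 held 50 KP and 198 KPF1F2 cells, at median depths of 9516 and 1888 UMIs. By contrast cluster 26 of KPF1F2, led by Krt7, Msln and Krt18, had 0.663 CPM, so the gene was not spread over all epithelial-like cells.

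Among immune cells, the KPF1F2 monocyte-like cells had the highest Il6 level, the 57.3 CPM given above, from 36 UMIs. Macrophage-like cells had 8.28 CPM (54 UMIs) in KP and 24.7 (266 UMIs) in KPF1F2, with a ratio of 2.98 (interval 2.21 to 4.07) at a mean below the minimum. Dendritic-like cells had 19 UMIs in KP and 7 in KPF1F2, and alveolar macrophage-like cells 11.2 and 8.43 CPM. All 50 Il6 UMIs of the KPF1F2 neutrophil-like class were in 2 cells that carried 5 and 6 of the 6 mast cell or basophil markers, against 1 UMI in KP, so neutrophil-like cells themselves showed next to none.

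**Figure D4:**
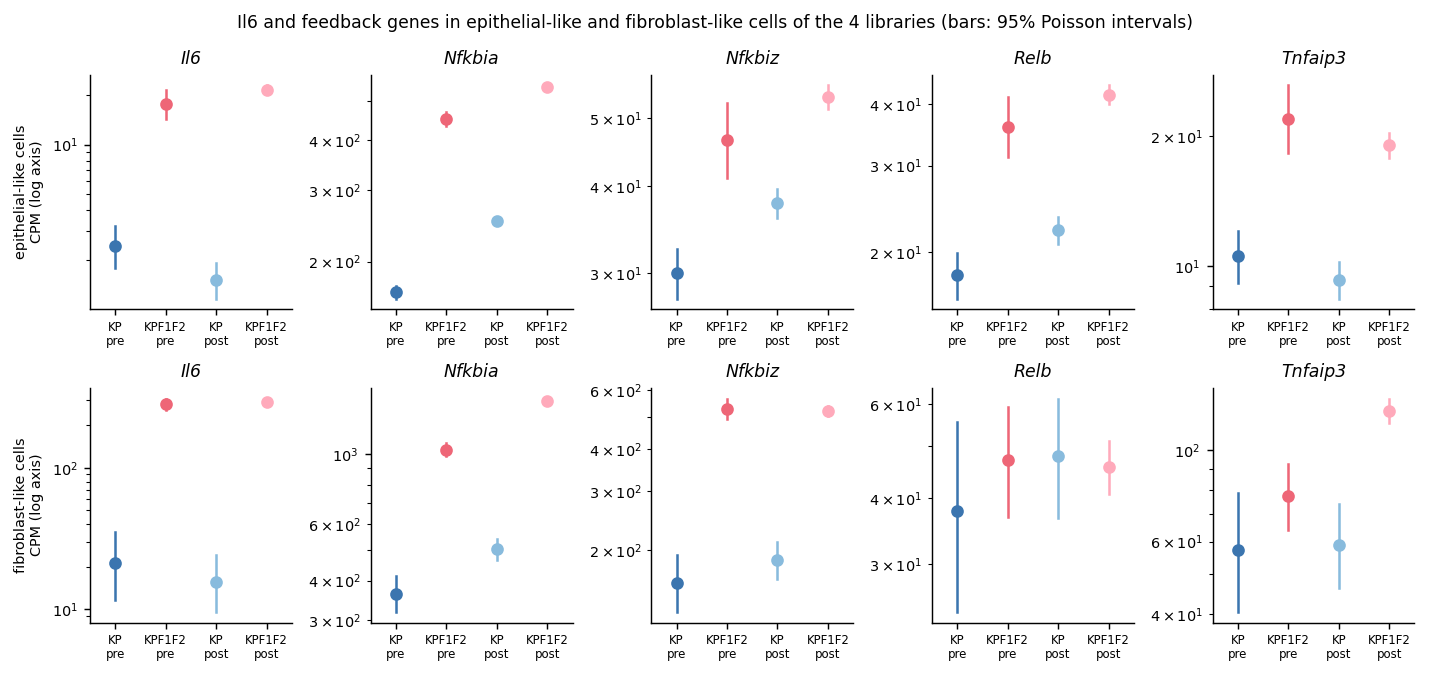
Levels of Il6, Nfkbia, Nfkbiz, Relb and Tnfaip3 in epithelial-like and fibroblast-like cells of the 4 libraries, in CPM on a log scale with exact Poisson 95% intervals. Il6 stands at 15.7 CPM in KP and 292 in KPF1F2 in fibroblast-like cells after depletion, and Nfkbia is higher in KPF1F2 than in KP in both classes and both pairs.

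Nfkbia (chr12:55489410-55492647), which NF-kB itself induces, was higher in KPF1F2 in epithelial-like cells of both pairs. Before depletion it was at 168 CPM (162 to 174) in KP and 450 (433 to 468) in KPF1F2, a log2 ratio of 1.42. After depletion it was at 252 CPM (248 to 257) and 540 (533 to 546), a log2 ratio of 1.09. Both KPF1F2 libraries were above both KP libraries. The post- and pre-depletion libraries of 1 genotype differed in Nfkbia by a log2 of 0.58 in KP and 0.26 in KPF1F2. Between them 1.04% and 1.37% of genes differed by at least 2-fold. Whether these 2 libraries came from the same mice is not given. They are therefore not taken as replicates, and their difference does not give the spread between mice.

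The difference in Nfkbia was seen within each epithelial-like cluster that both libraries filled with at least 20 cells. After depletion it was at 129 and 253 CPM in cluster 1, 232 and 558 in cluster 8, 136 and 508 in the shallow cluster 12, and 120 and 207 in cluster 24. Cluster 24 was shallow in KPF1F2 only, at a median of 9516 UMIs in KP and 1888 in KPF1F2. Before depletion cluster 1, the only one with enough cells of both, had 120 and 193 CPM. The highest level, 867 CPM, was in KPF1F2 cluster 30. Cells with and without a UMI of the CreERT2 transcript, which Flp recombination switches on, were also taken apart. The log2 ratio after depletion was 0.98 in cells with such a UMI and 1.24 in cells without, and before depletion 1.56 and 1.68. Cells with a CreERT2 UMI were deeper (a median of 21041 UMIs in KP after depletion, against 9841), and a cell without one may still carry the allele.

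**Figure D5:**
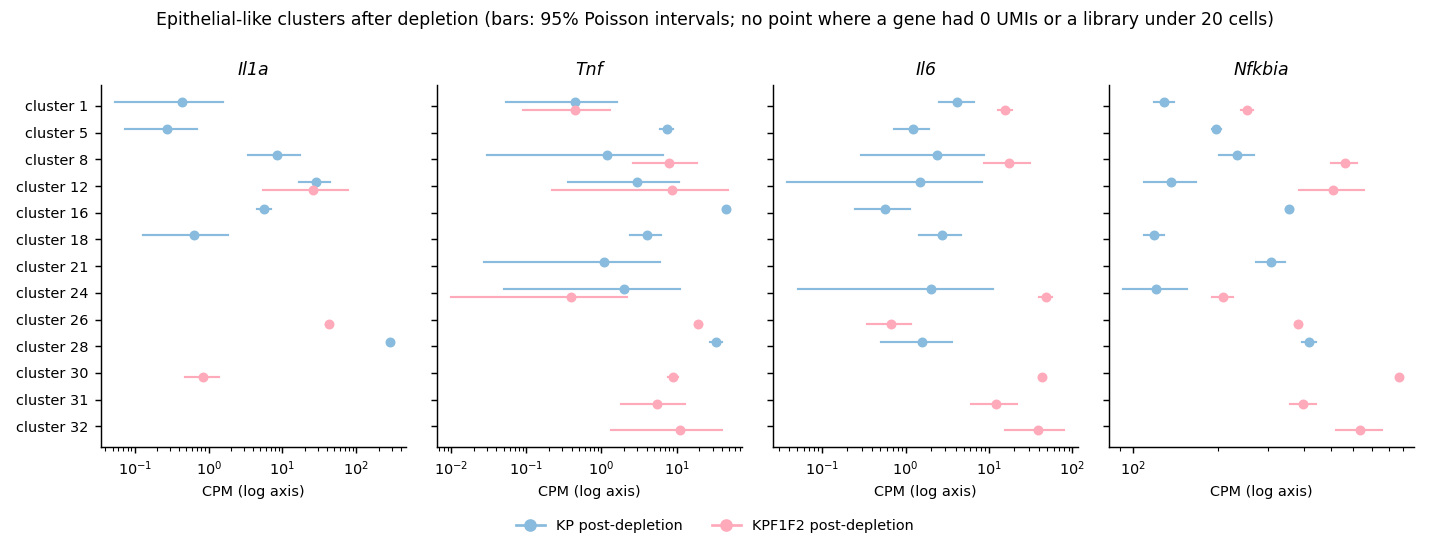
Levels of Il1a, Tnf, Il6 and Nfkbia by epithelial-like cluster after depletion, in CPM on a log scale with exact Poisson 95% intervals, for clusters with at least 20 cells in a library and at least 1 UMI of the gene. Nfkbia is higher in KPF1F2 in clusters 1, 8, 12 and 24, and KPF1F2 cluster 30 has the highest level of Nfkbia at 867 CPM.

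In fibroblast-like cells after depletion Nfkbia was at 502 CPM (464 to 542) in KP and 1460 (1431 to 1490) in KPF1F2, a log2 ratio of 1.54. Before depletion the class had 364 CPM in KP and 1031 in KPF1F2, in the same order. In cluster 22, which both libraries filled, it was at 517 and 1142 CPM. In neutrophil-like cells Nfkbia was at 2767 CPM (2643 to 2895) and 4580 (4477 to 4685), a log2 ratio of 0.73. It was higher in KPF1F2 in both clusters there, at 3080 and 7123 CPM in cluster 13 and at 1492 and 3229 in cluster 10. NK-like cells went the other way, at 910 CPM (826 to 1001; 423 UMIs) in KP and 433 (391 to 479; 385 UMIs) in KPF1F2, a log2 ratio of -1.07. That cluster was also led by T cell genes such as Cd3d and Cd8b1, so it mixes NK cells with other lymphocytes. Its 2 differences (Nfkbia and Nfkbiz) were short of 2-fold in 4 of 13 other settings each. The 13 include settings of the low-value filter, which could not move a ratio. Macrophage-like cells were level at 1119 and 1100 CPM, with a ratio interval of 0.955 to 1.01.

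Nfkbiz (chr16:55811375-55838899) was higher in KPF1F2 in neutrophil-like and fibroblast-like cells. In neutrophil-like cells it was at 379 CPM (333 to 428) in KP and 874 (829 to 921) in KPF1F2, a log2 ratio of 1.21. The difference was mostly in cluster 13 (303 and 845 CPM), while cluster 10 had 686 and 890, a log2 ratio of 0.38. In fibroblast-like cells after depletion it was at 187 CPM (164 to 212) and 520 (503 to 538), a log2 ratio of 1.47. Cluster 22 had 197 and 509 CPM, a ratio of 2.59 (interval 2.25 to 3.00). Nfkbiz was lower in KPF1F2 in NK-like cells, at 116 CPM (87.3 to 152; 54 UMIs) in KP and 52.9 (38.9 to 70.3; 47 UMIs) in KPF1F2, a log2 ratio of -1.12. In alveolar macrophage-like cells its log2 ratio was 0.94, and in epithelial-like cells 0.62 before and 0.50 after depletion. The epithelial-like clusters were uneven after depletion. Cluster 1 had 31.7 CPM in KP and 73.98 in KPF1F2 (ratio 2.33, interval 1.94 to 2.83). Cluster 8 had 17.9 and 55.99 CPM (ratio 3.12, interval 1.66 to 6.15), and cluster 12 had only 2 and 5 UMIs (2.96 and 43.8 CPM). Cluster 24 was about level, at 34.1 and 31.2 CPM (ratio interval 0.537 to 1.65). Before depletion cluster 1 had 30.8 and 36.3 CPM.

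Relb (chr7:19606217-19629438) was level between the genotypes in the dendritic-like class, where it was highest, but not within its clusters. Dendritic-like cells had 143 CPM (123 to 166) in KP and 147 (130 to 165) in KPF1F2, a log2 ratio of 0.04, and most of it was in migratory cluster 2. It was higher in KPF1F2 in that cluster, at 327 and 456 CPM (ratio 1.39, interval 1.12 to 1.73), and in cluster 23, at 27.5 and 47.1 (ratio 1.71, interval 1.03 to 2.94). Cluster 2 made up 29 of 73 KP and 29 of 108 KPF1F2 cells. Macrophage-like cells were level at 39.1 and 38.7 CPM and fibroblast-like cells after depletion at 47.9 and 45.7. In epithelial-like cells it was at 18.0 CPM (16.1 to 19.9) in KP and 36.0 (31.2 to 41.3) in KPF1F2 before depletion and at 22.2 (20.8 to 23.6) and 41.8 (39.98 to 43.7) after it. These log2 ratios, 0.96 and 0.88, stayed just inside 2-fold. Taken apart by the CreERT2 UMI, Relb was past 2-fold before depletion, at 1.18 in cells with it and 1.07 in cells without. After depletion these log2 ratios were 0.87 and 0.89. Endothelial-like cells had 38.4 CPM (40 UMIs) in KP and 98 (46 UMIs) in KPF1F2, a log2 ratio of 1.33 with a ratio interval of 1.63 to 4.00.

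Tnfaip3 (chr10:19000910-19015657) passed 2-fold in 1 comparison, that of fibroblast-like cells. After depletion it was at 58.9 CPM (46.3 to 73.8; 75 UMIs) in KP and 124 (116 to 133; 815 UMIs) in KPF1F2, a log2 ratio of 1.06. In cluster 22, with 65.8 and 118 CPM, the log2 ratio was 0.83 and thus short of 2-fold. In epithelial-like cells it was at 10.6 and 21.9 CPM before depletion and at 9.31 and 19.0 after it, below the minimum for a comparison. T cell-like cells, where it was highest, had 693 CPM (666 to 722) in KP and 511 (480 to 543) in KPF1F2, a log2 ratio of -0.44. Neutrophil-like cells had 349 and 381 CPM, with a ratio interval of 0.940 to 1.28.

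Il1a in epithelial-like cells was concentrated in single clusters. After depletion the class had 23.6 CPM in KP and 16.3 in KPF1F2. In KP 87.7% of these UMIs were in cluster 28, with 82 cells at 289 CPM and Krt14 and Timp1 among its leading genes. In KPF1F2 97.7% were in cluster 26, at 42.1 CPM. Tnf of epithelial-like KP cells was likewise concentrated, with 71.5% of its UMIs in cluster 16 at 44.8 CPM. These clusters hold almost no cells of the other genotype, so no ratio is given within them.

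Other measures also differed between the libraries of the same pairs. Hspa1a, a heat-shock gene that tissue dissociation can induce, was at 193 CPM in KP and 950 in KPF1F2 in epithelial-like cells after depletion and at 138 and 585 in fibroblast-like cells. It was at 10.2 and 108 CPM in alveolar macrophage-like and at 43.1 and 383 in macrophage-like cells. In neutrophil-like cells Hspa1a went the other way, at 46.0 CPM in KP and 25.1 in KPF1F2. The 14 immediate-early genes together summed to 13696 CPM in KP and 18961 in KPF1F2 in fibroblast-like cells, 11512 and 10901 in epithelial-like cells after depletion, and 18461 and 18550 in neutrophil-like cells. The 10 alveolar type 2 markers summed to 104194 and 60361 CPM in epithelial-like cells after depletion. The part of these in the members' differences was not tested.

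Genes of the surrounding pathway were read in 9 lists, chosen by function. In neutrophil-like cells the median gene was at -0.53, and 3.41% of all genes were higher and 25.4% lower. The Toll-like receptor list had the highest median there (0.92), with 3 of 6 measured genes higher and none lower. This list includes the co-receptors Cd14 and Ly96. Ly96 was at 11.9 CPM in KP and 38.0 in KPF1F2, so it passed the filter through KPF1F2. Tlr2, a receptor for bacterial lipoproteins, was at 125 CPM in KP and 448 in KPF1F2. Of 10 inhibitors and feedback genes 2 were higher and 1 lower (median 0.15), and the higher ones were Bcl3 (46.0 and 170 CPM) and Nfkbid (202 and 480), which both encode nuclear IkB proteins. Of 18 other NF-kB targets 2 were higher and 1 lower (median 0.30): Ptgs2, the inducible cyclooxygenase, was at 509 and 1243 CPM and the chemokine Cxcl1 at 78.7 and 219, while Bcl2a1d, a survival gene, was at 680 and 273. Tnfrsf1a, the main TNF receptor, was at 224 and 510 CPM, as 1 of 5 TNF and IL-6 receptors higher and none lower (median 0.07). None of the 4 NF-kB subunits was past 2-fold (median 0.21), nor either of 2 IL-1 family genes (median 0.43).

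The medians of the remaining neutrophil lists were nearer to 0, and all lay above the -0.53 of the median gene. Of 8 inflammasome genes none was higher and 1 lower (median 0.05): Nlrp3, the sensor whose assembly activates caspase-1, was at 662 and 977 CPM, and the DNA sensor Aim2 at 54.9 and 16.5. Of 15 adaptors and kinases none was higher and 2 lower (median -0.25), namely the IkB kinase subunit Chuk (log2 ratio -1.18) and the receptor kinase Irak1 (-1.14). Of the 14 immediate-early genes none was higher and 1 lower (median -0.07). These counts of lower genes are smaller shares than the 25.4% of all genes lower in this class. Since scaling moved this class by 0.75, these medians shift by as much with trimmed-mean factors.

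In epithelial-like cells all 3 measured NF-kB subunits had positive log2 ratios in both pairs: 1 was past 2-fold and none lower, with medians of 0.84 before and 0.78 after depletion beside 0.11 and 0.08 over all genes. That gene was Nfkb2, the partner of Relb, at 15.5 CPM in KP and 37.3 in KPF1F2 after depletion. Before depletion Nfkb2 was at 15.1 CPM in KP, so in both pairs it passed the filter through KPF1F2. Rela was at log2 ratios of 0.84 and 0.78. Of the inhibitors and feedback genes 1 of 8 was higher before depletion (median 0.45) and none of 7 after it (median 0.51), with none lower. Of the other NF-kB targets 3 of 13 were higher and none lower before (median 0.65), and 1 of 14 was higher and 1 lower after (median 0.21). The neutrophil attractant Cxcl2 was at 16.0 and 95.4 CPM after depletion, with log2 ratios of 2.30 and 2.5 in the pairs.

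Of the 2 IL-1 family genes measured in epithelial-like cells, Il33, an alarmin of barrier cells, was at 150.5 and 386 CPM after depletion (log2 ratios 0.78 and 1.35), and Il18r1 had log2 ratios of 0.85 and 0.74. Il6st, the shared signalling chain of IL-6 receptors, was at 20.2 and 48.4 CPM after depletion. It was the 1 of 4 TNF and IL-6 receptors past 2-fold there, with none lower (median 0.35). Before depletion that 1 gene was Adam17, the protease that sheds TNF, at a log2 ratio of 1.02. The adaptors and kinases had none past 2-fold either way in the pair after depletion (7 genes, median 0.29) or before it (8 genes, median 0.37).

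In fibroblast-like cells after depletion 2 of 4 subunits, 3 of 10 inhibitors and feedback genes and 5 of 12 other targets were higher, and none, none and 1 lower. The medians were 0.73, 0.31 and 0.64 beside -0.15 over all genes. Genes named here were picked after their values were seen: Nfkb1 was at 71.5 CPM in KP and 343 in KPF1F2, Cxcl1 at 405 and 2530, Cxcl2 at 30.6 and 369, and Ptgs2 at 128 and 553. Il1r1, the signalling receptor of interleukin 1, was at 151 and 233 CPM, within 2-fold. The 14 immediate-early genes had 5 higher and none lower, with a median of 0.66, close to that of the target list.

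The pattern of each member over 25 class-by-library sums was set beside that of 10223 other genes, as a Pearson correlation of log2 CPM. The sums of 1 library share its depth and preparation, so the values are descriptions. Il1b was most like Alox5ap (0.964), which serves leukotriene synthesis, and Nlrp3 (0.957), and Il1rn most like Clec5a (0.952), a myeloid receptor. Il1a was closest to Cxcl3 (0.907), Il1r2 to Cass4 (0.958), Tnf to Mthfs (0.913) and Tnfaip3 to Ifngr1 (0.917). Il6 was closest to the chemokines Ccl2 (0.843) and Cxcl1 (0.833). Nfkbia and Nfkbiz were each among the other's nearest genes (0.872), and the gene nearest to Nfkbiz was Socs3 (0.874). Relb was nearest to Tmem123 (0.834), Map3k14 (0.822) and Nfkb2 (0.768). The last of these are the kinase and the subunit of the alternative NF-kB pathway. Among the members themselves Il1b and Il1rn were alike (0.880), while Il1a and Relb were at -0.411.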

How the data were processed

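UMI counts were deposited by the authors as 1 matrix per library, whose headers name Cell Ranger 6.0.0 (per the file headers). Libraries were 10x Genomics 3′ version 3.1 per the labels' protocols, and mm10 is the genome that the submitters' processing notes name. No source used here gives the annotation or strand setting. Group sizes were 1 library each (4 libraries), so no test was run. Libraries held 4415 to 8536 barcodes and 47805086 to 63010016 UMIs.

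Cells had at least 1000 UMIs, 500 genes and at most 20% mitochondrial UMIs. Since scrublet marked under 0.5% of cells, the highest-scoring 0.8% per 1000 cells were removed (68 to 194 cells per library). With scanpy 1.11.5, counts were scaled to 10000 per cell, and 2000 variable genes without the members, pathway lists and mitochondrial genes gave 30 components, 15 neighbours and Leiden clusters (igraph 0.11.9) at resolution 1. A cluster was named when 3 markers of 1 of 23 sets stood 2-fold above the median cluster and no other set led it. A shallow cluster without a marker of its set among its leading genes stayed unnamed. Classes needed 50 cells in both libraries. Dendritic-like cells join a conventional and a migratory cluster. Intervals came from scipy 1.17.1, and edgeR 4.0.16 gave scaling factors only. The comparison was tested on simulated data. Promoters came from RefSeq on GRCm38.p6 and positions from GENCODE release 21.

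All 10 members were named, with, from each of 9 lists, up to 2 genes of largest ratio each way in neutrophil-like and epithelial-like cells, and the genes most like each member. The members and lists were chosen with earlier results of these data known. Alternatives covered cell filters, doublets, resolution, clustering genes, scaling, the added CPM, weight per cell, free RNA, the low-value filter and subsets of cells. The subsets were chosen after seeing the data, except cells with a CreERT2 UMI and the exclusion of the cell with most UMIs.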

Additional observations from a re-analysis of the deposited data

Results flagged for a closer look

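In 3 of the genes the difference between genotypes went past 2-fold in opposite directions in different cell classes before depletion. The log2 ratio of KPF1F2 to KP was -1.07 in NK-like and 1.42 in epithelial-like cells for Nfkbia, -1.12 in NK-like and 1.21 in neutrophil-like cells for Nfkbiz, and -1.36 in dendritic-like and 1.15 in neutrophil-like cells for Tnf. With 1 library per group, the difference between classes was not tested. The NK-like values rest on 423 and 385 UMIs of Nfkbia and 54 and 47 UMIs of Nfkbiz.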

How the results depend on the processing

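No paired analysis was possible because each group had 1 library. Of the 17 member ratios past 2-fold, all 17 kept their direction and 8 stayed past 2-fold in every alternative run. Alternatives that changed only the low-value filter could not move a ratio and so do not test it. Il1a in neutrophil-like cells ranged from -1.34 to -0.17 (log2), and Nfkbiz there from 0.38 to 2.00. NK-like cells were not found at resolution 0.5. Counts of members past 2-fold moved as follows. In alveolar macrophage-like cells 1 became 3 with doublets kept, 3 with at most 10% mitochondrial UMIs, 3 with the members among the clustering genes and 4 with equal weight per cell. In dendritic-like cells 3 became 0 at 500 UMIs and 200 genes and 5 with no low-value filter. In NK-like cells 2 became 0 with doublets kept, 0 with at most 10% mitochondrial UMIs, 0 with trimmed-mean (TMM) factors, 1 with median-of-ratios size factors, 1 with equal weight per cell and 6 with no low-value filter. In epithelial-like cells before depletion 1 became 2 at resolution 0.5, 2 with equal weight, 2 with 5% free RNA subtracted, 2 with no low-value filter, 4 in cells with a CreERT2 UMI, 3 in cells without one and 2 without clusters 1 and 12. After depletion 1 became 0 with free RNA subtracted, 0 in cells with a CreERT2 UMI and 3 with no low-value filter. With no low-value filter fibroblast-like cells went from 4 to 7, macrophage-like from 1 to 2, endothelial-like from 1 to 5, and T cell-like and B cell-like from 0 to 1. Macrophage-like cells also had 2 with free RNA subtracted. The cause was not tested, except that a missing filter admits genes with few UMIs. TMM factors moved the scale by 0.18 in dendritic-like, 0.13 in NK-like, 0.21 in fibroblast-like, 0.75 in neutrophil-like and -0.13 in epithelial-like cells before depletion. Genes higher and lower then went from 77 and 175 to 131 and 99 (dendritic-like), 147 and 262 to 226 and 200 (NK-like), 335 and 369 to 465 and 246 (fibroblast-like), 281 and 151 to 217 and 201 (epithelial-like before depletion), 143 and 135 to 171 and 99 (macrophage-like) and 189 and 184 to 245 and 136 (B cell-like). The 20 CPM minimum, not the number of UMIs, left Il6 and Tnfaip3 of epithelial-like cells after depletion out of the comparison.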
